A study of Homo sapiens with 15 samples.

Results

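Genes of cholesterol synthesis, uptake and efflux were followed in HaCaT cells, an immortal human keratinocyte line from skin, after treatment with Ag2S nanoparticles (NPs) or Li-doped Ag2S NPs. The set held 30 genes, chosen by their symbols from the 17214 genes that 2 deposited tables share, with earlier results of these data known. It comprised 8 enzymes of the mevalonate and isoprenoid steps, 11 enzymes of the sterol branch, SREBF2 and 3 of its regulators, 2 genes of sterol carriage and esterification, and 5 genes of the liver X receptors (LXRs) and their targets. RNA was sequenced in 5 groups of 3 libraries, namely cells given Li-doped Ag2S NPs at 320 μg/mL, Ag2S NPs at 320 μg/mL, Li-doped Ag2S NPs at 160 μg/mL or Ag2S NPs at 160 μg/mL for 24 h, and untreated control cells. The doped particles carry lithium ions and the others do not. All libraries came from 1 cell line. The labels do not say whether the libraries came from separate cultures, so that the p-values measure the spread between these libraries, which may be technical.

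Cells make cholesterol from acetyl-CoA through mevalonate, farnesyl pyrophosphate, squalene and lanosterol. The transcription factor SREBP2, encoded by SREBF2, switches on the genes of this route when sterols in the endoplasmic reticulum are low, and the LXRs switch on genes of cholesterol export when oxidised sterols are high. Keratinocytes use cholesterol as a main lipid of the skin barrier.

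Values are FPKM (fragments scaled to transcript length and to the mapped fragments of the library), which can be compared between genes. Differences are on the scale of log2(FPKM + 0.1), which understates the change of genes with low FPKM, and were tested with limma over all genes whose FPKM averaged 1 or more, namely 11903 genes at 320 μg/mL, 11987 at 160 μg/mL and 11952 over the 15 libraries. A gene is called higher or lower where its p, adjusted over all of these genes, is under 0.05. Of the 30 genes, 29 passed the minimum, and ABCA1 did not. The depth of the libraries is unknown from FPKM. The same 3 control libraries served every comparison with control, and their FPKM were identical in both tables.

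Summed FPKM per library ran from 582451 to 698579, and replicate 15 of Li-doped Ag2S NPs at 320 μg/mL held the highest sum. The median distance of its genes from control was 0.55 on the log2 scale, against 0.40 and 0.37 in replicates 13 and 14. With Li-doped Ag2S NPs at 160 μg/mL this distance was 0.50, 0.48 and 0.53 in replicates 10, 11 and 12. All 10 keratinocyte markers had a mean FPKM of at least 1, and they summed to between 23981 and 28218 FPKM with Li-doped Ag2S NPs and between 13823 and 15426 FPKM with Ag2S NPs at 320 μg/mL. Their sums at 160 μg/mL were 10498 to 12550 FPKM with Li-doped Ag2S NPs and 13308 to 14594 FPKM with Ag2S NPs, against 9142 to 9471 FPKM in control cells. The 6 fibroblast markers summed to between 0.32 and 4.97 FPKM in treated cells and to between 10.7 and 15.04 FPKM in control cells, and 4 of them stayed under 1 FPKM in every library. LUM and DCN, the others, reached 5.84 and 9.09 FPKM. The 3 measured endothelial markers summed to between 0.07 and 0.81 FPKM in treated cells and to between 3.36 and 4.01 FPKM in control cells. Of these, CDH5 reached 3.43 FPKM, while PECAM1 and VWF reached only 0.01 and 0.7 FPKM in any library. The 3 measured leukocyte markers, of which CD68 gave most of the signal, summed to between 25.8 and 29.4 FPKM with Li-doped Ag2S NPs at 160 μg/mL and to between 9.55 and 21.8 FPKM in the other groups, and the part of these lists in the results was not tested.

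The median of all tested genes lay under control in every treated group, by a log2 difference of -0.26 with Li-doped Ag2S NPs and -0.19 with Ag2S NPs at 320 μg/mL and of -0.19 and -0.14 with these NPs at 160 μg/mL. Counts of calls are therefore also given after each library was scaled by its median ratio, which brought these medians close to 0.

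Most cholesterol synthesis enzymes were lower with both particles at both doses, and the depth of the decrease depended on the pair of particle and dose. It was deepest with Li-doped Ag2S NPs at 160 μg/mL and with Ag2S NPs at 320 μg/mL. The median log2 difference from control of the 19 enzymes was -0.67 with Li-doped Ag2S NPs and -1.13 with Ag2S NPs at 320 μg/mL. It was -1.23 with Li-doped Ag2S NPs and -0.62 with Ag2S NPs at 160 μg/mL. Of all tested genes, 21.3% were called with a change over 2-fold with Li-doped Ag2S NPs at 160 μg/mL, the largest share. This share was 5.52% with Ag2S NPs at that dose, and 13.6% and 11.1% with Li-doped and undoped NPs at 320 μg/mL. In this bulk RNA, fewer cells with high expression and less RNA per cell cannot be told apart.

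At 320 μg/mL, Li-doped Ag2S NPs lowered 22 of the 29 tested genes and raised 2, while 44.6% and 17.0% of all tested genes were called lower and higher. After scaling, 15 were lower and 5 higher, against 26.4% and 27.9% of all genes. Without replicate 15 of this group, 23 were lower and 2 higher. Ag2S NPs at that dose lowered 24 and raised 1, against 36.2% and 16.2% of all genes. After scaling, 19 were lower and 4 higher, against 22.0% and 23.7% of all genes.

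At 160 μg/mL, Li-doped Ag2S NPs lowered 22 and raised 3, against 40.6% and 22.6% of all genes. After scaling, 22 were lower and 5 higher, against 30.1% and 30.6%. Ag2S NPs at that dose lowered 19 and raised 3, against 23.8% and 11.5% of all genes. After scaling, 17 were lower and 3 higher, against 14.1% and 16.0%. The count of 3 higher genes fell to 0 without control replicate 2 or without replicate 5 of that group.

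The 4 comparisons with control share the same 3 control libraries. As deposited, 17 of the 29 tested genes were lower in all 4, against 16.3% of the 11814 genes tested at both doses. They were 14 enzymes (ACAT2, HMGCS1, MVK, MVD, FDPS, FDFT1, LSS, CYP51A1, MSMO1, NSDHL, HSD17B7, EBP, SC5D and DHCR7), INSIG1, STARD4 and MYLIP. The call of MYLIP with Ag2S NPs at 160 μg/mL was lost without control replicate 1 or 2, or replicate 5 or 6 of that group (log2 difference -0.57 to -0.65, limma adjusted p = 0.0795 to 0.103) and after scaling (-0.53, adjusted p = 0.0627). That of NSDHL in the same comparison was also lost after scaling (-0.25, adjusted p = 0.0552). With Li-doped Ag2S NPs at 320 μg/mL, scaling also removed the calls of FDFT1, EBP and NSDHL (-0.13 to -0.20, limma adjusted p = 0.112 to 0.183). No gene of the set was higher in all 4 comparisons as deposited, while PMVK, TM7SF2 and ABCG1 were higher in all 4 after scaling.

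**Figure D1:**
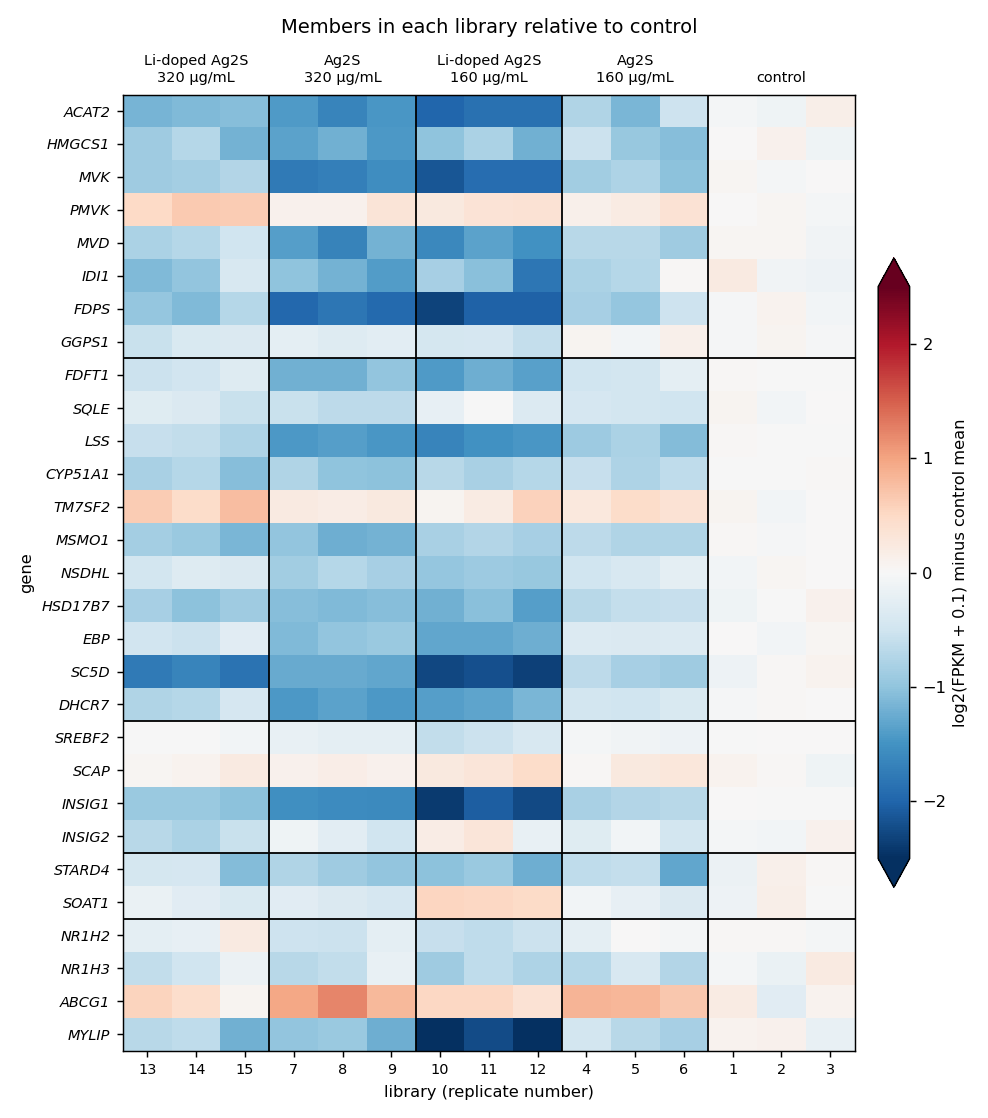
Heat map of the 29 tested genes (rows, grouped by role) in the 15 libraries (columns, grouped by treatment), coloured by log2(FPKM + 0.1) minus the control mean. FDPS, INSIG1, SC5D and MYLIP are darkest blue with Li-doped Ag2S NPs at 160 μg/mL, and PMVK and TM7SF2 lie in the red.

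The enzymes were also summarised in each library. The median of the 19 enzymes was -0.79, -0.71 and -0.56 with Li-doped Ag2S NPs at 320 μg/mL (the last in replicate 15), and -1.10, -1.19 and -1.18 with Ag2S NPs at that dose. The medians were -1.203, -1.05 and -1.22 with Li-doped Ag2S NPs at 160 μg/mL, -0.57, -0.69 and -0.51 with Ag2S NPs at that dose, and between -0.01 and 0.01 in control. The 3 libraries of Li-doped Ag2S NPs lay above those of Ag2S NPs at 320 μg/mL and below them at 160 μg/mL, with no overlap. After scaling, the median was -0.22 in replicate 15, against -0.58 and -0.52 in replicates 13 and 14.

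**Figure D2:**
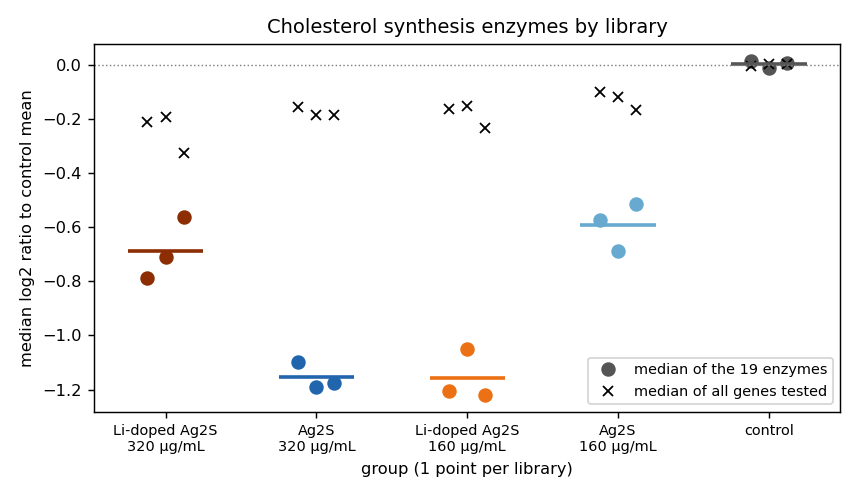
Median log2 ratio to the control mean over the 19 synthesis enzymes (filled points, 1 per library; line, group mean) and over all tested genes (crosses) in each group. The enzymes lie below the crosses in each of the 12 treated libraries.

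Among the mevalonate and isoprenoid enzymes, FDPS and MVK showed the pattern most clearly. FDPS makes farnesyl pyrophosphate and is encoded on chromosome 1 (155308748 to 155320666, plus strand, GRCh38). It had 86.0, 78.1 and 104 FPKM with Li-doped Ag2S NPs and 43.4, 48.4 and 44.2 FPKM with Ag2S NPs at 320 μg/mL. Its level at 160 μg/mL was 33.8, 41.8 and 41.6 FPKM with Li-doped Ag2S NPs and 94.96, 86.7 and 117 FPKM with Ag2S NPs, against 165, 181 and 162 FPKM in control cells. Every treated library was below every control library, and the libraries of the particles did not overlap at either dose. The mean was 52.7% of control with Li-doped Ag2S NPs and 26.8% with Ag2S NPs at 320 μg/mL, and 23.1% and 58.9% with these NPs at 160 μg/mL. The log2 difference between Li-doped and undoped NPs was 0.97 ± 0.10 at 320 μg/mL (SE, limma adjusted p = 7.63e-05) and -1.34 ± 0.12 at 160 μg/mL (adjusted p = 4.94e-06). GENCODE lists 8 pseudogenes named after FDPS, and how the authors' counting divided reads with them was not tested. CYP51A1 and HSD17B7 also have named pseudogenes there.

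MVK, which phosphorylates mevalonate, lies on chromosome 12 (109573255 to 109598117, plus strand, GRCh38). It had 40.0, 41.0 and 44.9 FPKM with Li-doped Ag2S NPs and 21.7, 22.7 and 25.4 FPKM with Ag2S NPs at 320 μg/mL. For MVK, the cells at 160 μg/mL had 16.8, 19.7 and 19.7 FPKM with Li-doped Ag2S NPs and 40.9, 43.7 and 36.6 FPKM with Ag2S NPs, against 76.8, 71.9 and 74.5 FPKM in control cells. The particles changed places between the doses without overlap. MVD, which decarboxylates the pyrophosphate of mevalonate, moved alike, with 95.2 ± 10.5 and 57.1 ± 9.54 FPKM with Li-doped and undoped NPs at 320 μg/mL, 53.7 ± 5.14 and 89.3 ± 7.01 FPKM at 160 μg/mL, and 151 ± 8.28 FPKM in control (SD, n = 3 each). ACAT2, which makes acetoacetyl-CoA, had 17.9 ± 0.68 and 13.6 ± 1.2 FPKM at 320 μg/mL, 10.3 ± 0.51 and 22.5 ± 4.86 FPKM at 160 μg/mL in the same order, and 38.9 ± 3.54 FPKM in control.

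HMGCS1, which makes the precursor of mevalonate, was lower in all 4 groups with less difference between them. It had 38.6, 43.5 and 31.5 FPKM with Li-doped Ag2S NPs and 28.0, 31.1 and 26.1 FPKM with Ag2S NPs at 320 μg/mL. The lower dose gave HMGCS1 35.4, 40.9 and 31.1 FPKM with Li-doped Ag2S NPs and 49.4, 36.8 and 34.03 FPKM with Ag2S NPs, against 72.0, 76.4 and 65.9 FPKM in control cells. The particles overlapped at 160 μg/mL, where their log2 difference was -0.15 (95% interval -0.46 to 0.16, limma adjusted p = 0.388). At 320 μg/mL the log2 difference was 0.40 (adjusted p = 0.0246), and it was lost without replicate 7 or 9 of Ag2S NPs or replicate 13 or 14 of Li-doped Ag2S NPs (0.30 to 0.39, adjusted p = 0.0631 to 0.0786).

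PMVK, which adds the second phosphate to mevalonate, went the other way. It had 37.7, 42.1 and 41.7 FPKM with Li-doped Ag2S NPs and 28.97, 28.98 and 33.4 FPKM with Ag2S NPs at 320 μg/mL. PMVK at 160 μg/mL had 31.7, 34.02 and 34.4 FPKM with Li-doped Ag2S NPs and 29.3, 31.0 and 34.5 FPKM with Ag2S NPs, against 27.0, 27.5 and 25.7 FPKM in control cells. Every treated library was above every control library. The log2 difference from control was 0.60 ± 0.08 with Li-doped Ag2S NPs at 320 μg/mL (SE, limma adjusted p = 9.21e-05) and 0.32 ± 0.08 with them at 160 μg/mL (adjusted p = 0.00506). With Ag2S NPs it was 0.18 at 320 μg/mL (adjusted p = 0.075, or 0.36 and 0.00811 after scaling) and 0.24 at 160 μg/mL (adjusted p = 0.0401). The call at 160 μg/mL with Ag2S NPs was lost without any 1 control library, replicate 5 or 6 of Ag2S NPs or replicate 11 of Li-doped Ag2S NPs (0.17 to 0.26, adjusted p = 0.0523 to 0.129).

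GGPS1, which makes the geranylgeranyl group for protein prenylation, was lower with Li-doped Ag2S NPs at both doses (log2 difference -0.43 at 320 μg/mL, limma adjusted p = 0.000609, and -0.48 at 160 μg/mL, adjusted p = 0.000416). With Ag2S NPs it was lower at 320 μg/mL (-0.28, adjusted p = 0.0106) and had a log2 difference of 0.04 at 160 μg/mL (95% interval -0.14 to 0.23). After scaling only the call with Li-doped Ag2S NPs at 160 μg/mL was kept among these (-0.29, adjusted p = 0.00973), and that at 320 μg/mL with Ag2S NPs was also lost without control replicate 2 (-0.24, adjusted p = 0.0516). IDI1, which isomerises the isoprenoid unit, was measured at only 0.71 to 3.23 FPKM. It was lower in 3 groups but not with Ag2S NPs at 160 μg/mL (log2 difference -0.50, 95% interval -1.18 to 0.19). The call with Li-doped Ag2S NPs at 320 μg/mL (-0.84, adjusted p = 0.0114) was lost after scaling (-0.60, adjusted p = 0.0653) and without control replicate 1 (-0.73, adjusted p = 0.0504).

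Of the sterol branch enzymes, 10 of 11 were lower and 1 higher with Li-doped Ag2S NPs at 320 μg/mL, and 10 were lower and 0 higher with Ag2S NPs. At 160 μg/mL, 9 were lower and 0 higher with Li-doped Ag2S NPs, and 10 were lower and 1 higher with Ag2S NPs. Of all tested genes, 44.6% were lower and 17.0% higher with Li-doped Ag2S NPs at 320 μg/mL, 36.2% and 16.2% with Ag2S NPs at that dose, 40.6% and 22.6% with Li-doped Ag2S NPs at 160 μg/mL, and 23.8% and 11.5% with Ag2S NPs at that dose. After scaling, 6, 10, 9 and 9 of the 11 were lower in this order of groups. LSS closes the ring of lanosterol and is encoded on chromosome 21 (46188141 to 46228824, minus strand, GRCh38). It had 49.1, 48.0 and 43.0 FPKM with Li-doped Ag2S NPs and 27.1, 28.1 and 26.6 FPKM with Ag2S NPs at 320 μg/mL. Its level at 160 μg/mL was 23.2, 25.7 and 26.7 FPKM with Li-doped Ag2S NPs and 38.7, 42.4 and 34.4 FPKM with Ag2S NPs, against 74.6, 72.3 and 72.8 FPKM in control cells. The order of the particles was again opposite at the 2 doses, with a log2 difference of 0.77 ± 0.07 at 320 μg/mL (SE, limma adjusted p = 3.21e-05) and -0.61 ± 0.09 at 160 μg/mL (adjusted p = 0.000197).

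DHCR7, which carries out a last reduction of the ring, lies on chromosome 11 (71428193 to 71452868, minus strand, GRCh38). It had 119, 122 and 149.9 FPKM with Li-doped Ag2S NPs and 73.4, 79.1 and 73.8 FPKM with Ag2S NPs at 320 μg/mL. For DHCR7, the cells at 160 μg/mL had 76.4, 79.6 and 90.9 FPKM with Li-doped Ag2S NPs and 145, 141 and 153 FPKM with Ag2S NPs, against 196, 203 and 201 FPKM in control cells. The highest of the Li-doped libraries at 320 μg/mL was replicate 15, and without it the log2 difference between the particles at that dose remained past the threshold. FDFT1, which makes squalene, had 181 ± 14.6 and 113 ± 9.68 FPKM with Li-doped and undoped NPs at 320 μg/mL, 98.0 ± 6.99 and 189 ± 18.0 FPKM at 160 μg/mL, and 247 ± 3.98 FPKM in control (SD, n = 3 each). EBP, a sterol isomerase, and NSDHL, which helps to remove methyl groups from the sterol, had the same order of groups. Their log2 differences between the particles were 0.57 and 0.42 at 320 μg/mL, with -0.92 and -0.56 at 160 μg/mL (limma adjusted p = 4.05e-07 to 0.00238). With Li-doped Ag2S NPs at 320 μg/mL, the calls against control of FDFT1, EBP, NSDHL and SQLE were lost after scaling (log2 difference -0.13 to -0.20, adjusted p = 0.0719 to 0.183).

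SC5D, which sets a double bond into the sterol ring, had the largest decrease of the 19 enzymes with Li-doped Ag2S NPs at both doses, and was the only enzyme called lower with Li-doped than with undoped NPs at 320 μg/mL. It lies on chromosome 11 (121292453 to 121308694, plus strand, GRCh38). It had 48.5, 52.5 and 45.5 FPKM with Li-doped Ag2S NPs and 68.7, 68.2 and 66.9 FPKM with Ag2S NPs at 320 μg/mL. The lower dose gave SC5D 33.7, 35.8 and 32.5 FPKM with Li-doped Ag2S NPs and 104, 92.2 and 88.4 FPKM with Ag2S NPs, against 151, 168 and 175 FPKM in control cells. It was lower with Li-doped than with undoped NPs at both doses and without overlap, by -0.48 ± 0.07 on the log2 scale at 320 μg/mL (SE, limma adjusted p = 0.00107) and by -1.47 ± 0.08 at 160 μg/mL (adjusted p = 1.92e-07).

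SQLE, CYP51A1 and MSMO1 are enzymes that, like SC5D, use molecular oxygen. SQLE, which oxidises squalene, had 44.2, 42.4 and 36.7 FPKM with Li-doped Ag2S NPs and 36.7, 34.5 and 34.6 FPKM with Ag2S NPs at 320 μg/mL. SQLE at 160 μg/mL had 47.2, 53.6 and 43.0 FPKM with Li-doped Ag2S NPs and 40.7, 39.3 and 38.5 FPKM with Ag2S NPs, against 56.7, 51.5 and 54.7 FPKM in control cells. With Li-doped Ag2S NPs at 160 μg/mL it overlapped with control (log2 difference -0.18, 95% interval -0.37 to 0.00), but the test passed without replicate 11 (-0.27, limma adjusted p = 0.0168). At that dose SQLE was higher with Li-doped than with undoped NPs (0.27, adjusted p = 0.0207), a call lost without replicate 5 of Ag2S NPs or replicate 11 of Li-doped Ag2S NPs (0.27 and 0.19, adjusted p = 0.0522 and 0.0833). At 320 μg/mL the difference of SQLE between the particles did not pass the threshold as deposited. There it was called higher with Li-doped NPs after scaling (0.30, adjusted p = 0.0106) and without replicate 15 (0.30, adjusted p = 0.00929). CYP51A1, which removes a methyl group of lanosterol, had a log2 difference between the particles of 0.07 (95% interval -0.15 to 0.29) at 320 μg/mL and -0.08 (-0.24 to 0.08) at 160 μg/mL. For MSMO1, which oxidises another methyl group, it was 0.16 (-0.04 to 0.35) at 320 μg/mL and -0.07 (-0.21 to 0.07) at 160 μg/mL. MSMO1 was past the threshold at 320 μg/mL after scaling (0.24, adjusted p = 0.0425) and without replicate 15 (0.24, adjusted p = 0.0437).

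TM7SF2, a sterol reductase, was the other enzyme that was higher than control. It had 34.6, 30.5 and 38.1 FPKM with Li-doped Ag2S NPs and 25.9, 25.2 and 26.5 FPKM with Ag2S NPs at 320 μg/mL. Its level at 160 μg/mL was 23.22, 25.6 and 33.2 FPKM with Li-doped Ag2S NPs and 26.7, 30.5 and 28.6 FPKM with Ag2S NPs, against 23.16, 21.3 and 22.3 FPKM in control cells. All 12 treated libraries were above every control library, the lowest of them by a small margin. The log2 difference from control was 0.62 ± 0.09 with Li-doped Ag2S NPs at 320 μg/mL (SE, limma adjusted p = 0.000122) and 0.36 ± 0.12 with Ag2S NPs at 160 μg/mL (adjusted p = 0.0408). The second call was lost without any 1 control library or replicate 5 or 6 of its group (0.31 to 0.39, adjusted p = 0.0731 to 0.119). The difference was 0.22 with Ag2S NPs at 320 μg/mL and 0.28 with Li-doped Ag2S NPs at 160 μg/mL, and neither passed the threshold. Both were called higher after scaling (0.39 and 0.47, adjusted p = 0.0118 and 0.0115). Exons of TM7SF2 overlap those of VPS51 on the same strand, so that reads of these genes may be mixed. The same holds for GGPS1 with TBCE and for CYP51A1 with AC000120.3.

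HSD17B7, a reductase of the same demethylation, was lower in all 4 groups. It had 15.9 ± 1.09 and 14.3 ± 0.21 FPKM with Li-doped and undoped NPs at 320 μg/mL, 13.1 ± 1.47 and 19.7 ± 0.87 FPKM at 160 μg/mL, and 30.3 ± 2.26 FPKM in control (SD, n = 3 each). The particles differed at 160 μg/mL (log2 difference -0.59, limma adjusted p = 0.000575), and at 320 μg/mL their log2 difference was 0.15 (95% interval -0.04 to 0.34, adjusted p = 0.209).

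The differences between the particles were next counted over the set. Li-doped against undoped NPs at 320 μg/mL left 2 genes lower and 15 higher, while 16.1% and 10.1% of all genes were lower and higher. At 160 μg/mL, 16 were lower and 3 higher, against 29.0% and 21.4% of all genes. The median log2 difference of the enzymes was 0.40 at 320 μg/mL and -0.61 at 160 μg/mL, against -0.08 and -0.05 over all tested genes. Higher with Li-doped than undoped NPs at 320 μg/mL and lower at 160 μg/mL were 12 of the 29 genes (ACAT2, MVK, MVD, FDPS, FDFT1, LSS, NSDHL, EBP, DHCR7, SREBF2, INSIG1 and NR1H2), against 3.54% of the genes tested at both doses. At 320 μg/mL the call of SREBF2 was lost without replicate 8 or 9 of Ag2S NPs or replicate 13 of Li-doped Ag2S NPs (0.19, adjusted p = 0.0545 to 0.0692). The call of NR1H2 at that dose was lost after scaling (0.44, adjusted p = 0.0546) and without any 1 control library, replicate 7 or 8 of Ag2S NPs or replicate 15 of Li-doped Ag2S NPs (0.21 to 0.36, adjusted p = 0.0668 to 0.152). Without replicate 15, 2 genes were lower and 17 higher at 320 μg/mL.

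**Figure D3:**
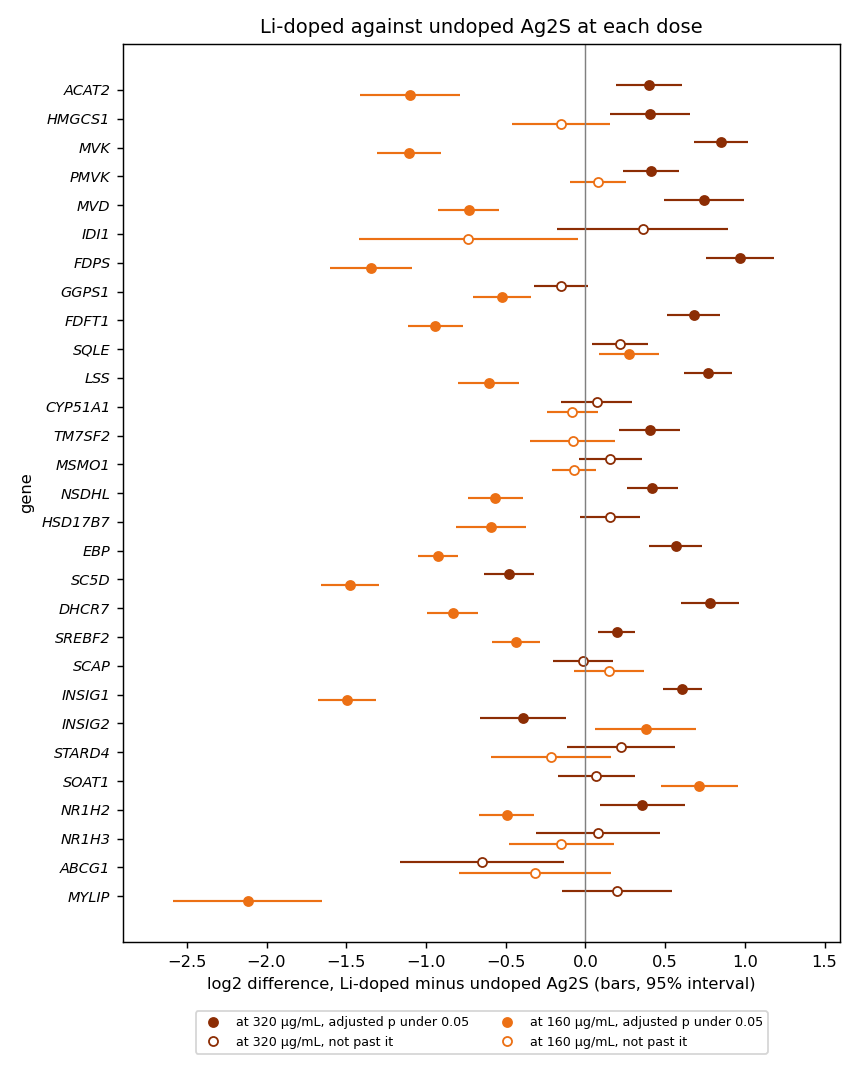
Log2 difference of Li-doped minus undoped Ag2S NPs for each tested gene at 320 μg/mL (brown) and 160 μg/mL (orange), with the 95% interval of limma. Filled points had an adjusted p under 0.05, and most enzymes lie right of 0 at 320 μg/mL and left of 0 at 160 μg/mL.

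The doses of each particle were compared in 1 model of all 15 libraries. With Li-doped Ag2S NPs, 2 genes were lower and 17 higher at 320 than at 160 μg/mL, while 23.3% and 19.6% of all genes were lower and higher. With Ag2S NPs, 15 genes were lower and 0 higher at 320 than at 160 μg/mL (0 also at an unadjusted p under 0.05), against 7.68% and 4.84% of all genes. Li-doped and undoped NPs differed in their dose effect in 21 of 29 genes, with 2 negative and 19 positive differences, against 19.5% and 20.2% of all genes. Among the 19 enzymes, 15 had a positive and 0 a negative difference. IDI1, SQLE, CYP51A1 and MSMO1 did not pass this test, with differences of 1.09 (95% interval 0.20 to 1.99), -0.06 (-0.32 to 0.21), 0.15 (-0.13 to 0.44) and 0.23 (-0.02 to 0.48). IDI1 passed without replicate 4 of Ag2S NPs or replicate 10 or 13 of Li-doped Ag2S NPs (1.23 to 1.30, limma adjusted p = 0.0305 to 0.0439). MSMO1 passed without replicate 15 of Li-doped Ag2S NPs (0.31, adjusted p = 0.028).

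Start sites were looked at for letters that SREBP2 and its partners are known to read. RefSeq start sites on GRCh38.p14 were found for 26 of the 30 genes, with 37 stretches that run from 250 bases before to 50 after a start. A CCAAT box (letters CCAAT on either strand), which the SREBP2 partner NF-Y reads, was in 16 of 23 stretches of 16 enzymes (69.6%), in 22 of the 37 stretches of the set (59.5%) and in 34.6% of all 35116 stretches. The sterol element searched (letters TCACNCCAC on either strand) was in 1 of the 37, that of SREBF2, in 0 of the 23 enzyme stretches, and in 1.13% of all stretches. A direct repeat of AGGTCA with any 4 bases between, the element of the LXRs, was in 0 of the 37 and in 0.0199% of all. The matches are descriptions of letters and not sites of binding. Exact matches of the sterol and LXR elements were so rare in all stretches that few or none here says little. Looser forms of these elements and positions outside the stretches were not searched. Of the 26 genes with a stretch, 20 held a CCAAT box. They include genes outside the 12 above, such as TM7SF2, SOAT1, SC5D, HMGCS1 and MSMO1, so the box does not mark the 12. The CCAAT box nearest the start is shown only for the 9 of the 12 genes above that hold one in the stretches used. RefSeq starts can differ from the gene starts of GENCODE. The pieces shown for MVK, FDPS, NSDHL, EBP and DHCR7 lie inside the gene as GENCODE places it, not before its start. The box and the sterol element are in capitals, 5′ to 3′ on the strand of the gene.
INSIG1, chr7:155297698-155297722, plus strand: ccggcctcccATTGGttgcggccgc
SREBF2, chr22:41832962-41833013, plus strand: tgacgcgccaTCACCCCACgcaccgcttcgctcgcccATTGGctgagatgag
MVK, chr12:109573738-109573762, plus strand: gcgcgctctgATTGGctggcctgaa
MVD, chr16:88663162-88663186, minus strand: ctcgcacgggCCAATcctgtggtag
FDPS, chr1:155308805-155308829, plus strand: ccgcgggcacATTGGgagttgtagt
LSS, chr21:46228910-46228934, minus strand: cggcgctctgATTGGttgcgtgggc
NSDHL, chrX:152830969-152830993, plus strand: ccgagctgggCCAATcctcttggtg
EBP, chrX:48521768-48521792, plus strand: tcgcttcaccATTGGctcgctccgt
DHCR7, chr11:71448427-71448451, minus strand: tccgcctccgATTGGcaggcaatcg
In the other 3 genes no box was shown, because ACAT2 and FDFT1 were not matched and NR1H2 held none of these letters.

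INSIG1 had the widest range among the regulators of SREBP2. It holds SREBP2 and its escort SCAP in the endoplasmic reticulum, is itself switched on by SREBP2, and lies on chromosome 7 (155297776 to 155310235, plus strand, GRCh38). It had 81.7, 81.5 and 75.6 FPKM with Li-doped Ag2S NPs and 53.2, 51.8 and 51.6 FPKM with Ag2S NPs at 320 μg/mL. For INSIG1, the cells at 160 μg/mL had 29.5, 37.1 and 32.3 FPKM with Li-doped Ag2S NPs and 88.6, 93.5 and 96.1 FPKM with Ag2S NPs, against 156, 154 and 154 FPKM in control cells. The 5 groups did not overlap. From low to high the order was Li-doped Ag2S NPs at 160 μg/mL, Ag2S NPs at 320 μg/mL, Li-doped Ag2S NPs at 320 μg/mL, Ag2S NPs at 160 μg/mL and control. Between the particles the log2 difference was 0.61 ± 0.06 at 320 μg/mL (SE, limma adjusted p = 4.22e-05) and -1.49 ± 0.08 at 160 μg/mL (adjusted p = 1.78e-07).

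The decrease of SREBF2 itself was smaller than the median of the enzymes in each group. The gene lies on chromosome 22 (41833079 to 41907308, plus strand, GRCh38). It had 130.03, 129.93 and 125 FPKM with Li-doped Ag2S NPs and 116, 110.2 and 110.2 FPKM with Ag2S NPs at 320 μg/mL. The lower dose gave SREBF2 85.0, 90.2 and 99.8 FPKM with Li-doped Ag2S NPs and 127, 124 and 120.2 FPKM with Ag2S NPs, against 129.92, 132 and 132 FPKM in control cells. Li-doped Ag2S NPs at 160 μg/mL and Ag2S NPs at 320 μg/mL gave all libraries under control (log2 difference -0.52, limma adjusted p = 5.87e-05, and -0.23, adjusted p = 0.0039), while the other groups overlapped with control or lay just under it. The log2 difference was -0.03 with Li-doped Ag2S NPs at 320 μg/mL (95% interval -0.14 to 0.09), which turned to 0.22 after scaling (adjusted p = 0.00623). That of Ag2S NPs at 320 μg/mL was -0.05 after scaling (adjusted p = 0.462). With Ag2S NPs at 160 μg/mL it was -0.08 (-0.23 to 0.07).

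SCAP, which escorts SREBP2 to the Golgi, was higher than control with Li-doped Ag2S NPs at 160 μg/mL, with 24.0 ± 1.96 FPKM against 19 ± 1.35 FPKM (SD, n = 3 each). Its log2 difference there was 0.33 ± 0.10 (SE, limma adjusted p = 0.0123) and fell under the threshold without control replicate 3 (0.28, adjusted p = 0.0552). In the other groups it was 0.12 to 0.19 (adjusted p = 0.16 to 0.254), and after scaling both groups at 320 μg/mL were called higher (0.37 and 0.30 with Li-doped and undoped NPs, adjusted p = 0.00899 and 0.0267). INSIG2, a relative of INSIG1, had 7.32, 6.80 and 7.97 FPKM with Li-doped Ag2S NPs and 11.01, 9.83 and 8.38 FPKM with Ag2S NPs at 320 μg/mL. INSIG2 at 160 μg/mL had 13.5, 14.6 and 10.5 FPKM with Li-doped Ag2S NPs and 9.59, 11.3 and 8.62 FPKM with Ag2S NPs, against 11.4, 11.3 and 12.8 FPKM in control cells. It was lower than control with Li-doped Ag2S NPs at 320 μg/mL, without overlap (log2 difference -0.68 ± 0.12, SE, adjusted p = 0.000689). The differences between the particles (-0.39 at 320 μg/mL and 0.38 at 160 μg/mL, adjusted p = 0.0373 and 0.0464) had signs opposite to those of INSIG1. The call at 320 μg/mL was lost without control replicate 1 or 2, replicate 7 or 8 of Ag2S NPs or replicate 13 or 14 of Li-doped Ag2S NPs (-0.30 to -0.39, adjusted p = 0.0546 to 0.149) and after scaling (-0.32, adjusted p = 0.0938). The call at 160 μg/mL was lost without any 1 control library, replicate 4 or 6 of Ag2S NPs or replicate 10 or 11 of Li-doped Ag2S NPs (0.28 to 0.38, adjusted p = 0.0578 to 0.167).

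STARD4, a soluble sterol carrier that SREBP2 switches on, was lower in all 4 groups. It had 37.9, 38.4 and 24.3 FPKM with Li-doped Ag2S NPs and 30.6, 27.9 and 26.0 FPKM with Ag2S NPs at 320 μg/mL. Its level at 160 μg/mL was 25.4, 27.2 and 22.2 FPKM with Li-doped Ag2S NPs and 33.4, 34.2 and 20.9 FPKM with Ag2S NPs, against 46.3, 56.3 and 52.6 FPKM in control cells. All treated libraries lay under control, and replicate 15 and replicate 6 of Ag2S NPs at 160 μg/mL were each lower than the other 2 of their group. The particles overlapped at both doses, with a log2 difference of 0.22 at 320 μg/mL (95% interval -0.12 to 0.56) and -0.21 at 160 μg/mL (-0.59 to 0.16). Without replicate 15 the first was 0.44 (limma adjusted p = 0.00778), and without replicate 6 the second was -0.44 (adjusted p = 0.00654).

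SOAT1, which stores cholesterol as esters, was higher in 1 group. It had 9.76, 9.04 and 8.37 FPKM with Li-doped Ag2S NPs and 9.02, 8.59 and 8.24 FPKM with Ag2S NPs at 320 μg/mL. For SOAT1, the cells at 160 μg/mL had 16.1, 15.7 and 15.3 FPKM with Li-doped Ag2S NPs and 10.5, 9.56 and 8.58 FPKM with Ag2S NPs, against 10.0, 12.2 and 10.9 FPKM in control cells. Only Li-doped Ag2S NPs at 160 μg/mL lay above control, by 0.51 ± 0.11 on the log2 scale (SE, limma adjusted p = 0.00181) and by 0.72 ± 0.11 over Ag2S NPs at that dose (adjusted p = 0.000287). At 320 μg/mL the differences from control were -0.28 with Li-doped Ag2S NPs (adjusted p = 0.0458) and -0.35 with Ag2S NPs (adjusted p = 0.0211). Both calls were lost after scaling (-0.03 and -0.18, adjusted p = 0.821 and 0.163). The first was lost without control replicate 2 or 3, any 1 library of Ag2S NPs or replicate 14 or 15 of Li-doped Ag2S NPs (-0.21 to -0.28, adjusted p = 0.055 to 0.178). The second was lost without control replicate 2 or 3 or replicate 8 or 9 of Ag2S NPs (-0.28 to -0.35, adjusted p = 0.0525 to 0.0943).

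Of the LXRs, NR1H2 (LXR-beta) was the more abundant and NR1H3 (LXR-alpha) the less. NR1H2 had 39.0, 39.7 and 53.9 FPKM with Li-doped Ag2S NPs and 32.1, 31.8 and 38.8 FPKM with Ag2S NPs at 320 μg/mL. The lower dose gave NR1H2 30.8, 29.6 and 31.6 FPKM with Li-doped Ag2S NPs and 38.9, 46.4 and 44.7 FPKM with Ag2S NPs, against 46.7, 46.6 and 44.7 FPKM in control cells. It was lower with Li-doped Ag2S NPs at 160 μg/mL, without overlap (log2 difference -0.58 ± 0.08, SE, limma adjusted p = 7.02e-05). It was also lower with Ag2S NPs at 320 μg/mL (-0.43 ± 0.12, adjusted p = 0.0113, or -0.26 and 0.179 after scaling). With Li-doped Ag2S NPs at 320 μg/mL the log2 difference was -0.07 (95% interval -0.34 to 0.19) and -0.22 without replicate 15 (adjusted p = 0.0443). NR1H3 had 6.77 ± 1.23 and 6.42 ± 1.30 FPKM with Li-doped and undoped NPs at 320 μg/mL, 5.28 ± 0.47 and 5.89 ± 0.82 FPKM at 160 μg/mL, and 9.06 ± 1.32 FPKM in control (SD, n = 3 each). It was called lower in 3 groups and had a log2 difference of -0.42 with Li-doped Ag2S NPs at 320 μg/mL (adjusted p = 0.0576, or 0.0172 without replicate 15). The call with Ag2S NPs at 320 μg/mL (-0.50, adjusted p = 0.0342) was lost without control replicate 1 or 3 or replicate 7 or 8 of that group (adjusted p = 0.0635 to 0.132) and after scaling (-0.33, adjusted p = 0.19). Exons of NR1H3 overlap those of ACP2 on the other strand.

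The LXR targets did not move in 1 direction. ABCG1, which exports cholesterol to lipoproteins, had 1.79, 1.64 and 1.24 FPKM with Li-doped Ag2S NPs and 2.40, 2.90 and 2.15 FPKM with Ag2S NPs at 320 μg/mL. ABCG1 at 160 μg/mL had 1.74, 1.74 and 1.55 FPKM with Li-doped Ag2S NPs and 2.20, 2.19 and 1.95 FPKM with Ag2S NPs, against 1.37, 0.95 and 1.27 FPKM in control cells. Both groups of Ag2S NPs were above control without overlap, with log2 differences of 1.00 ± 0.23 at 320 μg/mL (SE, limma adjusted p = 0.00427) and 0.78 ± 0.22 at 160 μg/mL (adjusted p = 0.0178). The second was lost without control replicate 2 (0.64, adjusted p = 0.0695) or replicate 5 of its group (0.76, adjusted p = 0.0529). With Li-doped Ag2S NPs the differences were 0.35 (95% interval -0.16 to 0.87) at 320 μg/mL and 0.47 (-0.01 to 0.94) at 160 μg/mL, and both were called higher after scaling (0.59 and 0.64, adjusted p = 0.0394 and 0.0214). Between the particles the log2 difference was -0.65 (-1.16 to -0.13, adjusted p = 0.0635) at 320 μg/mL and -0.32 (-0.79 to 0.16) at 160 μg/mL, and neither passed the threshold. The first was called lower with a pseudocount of 1 FPKM (-0.45, limma adjusted p = 0.0449) and with all 15 libraries in 1 fit (-0.65, adjusted p = 0.0343).

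MYLIP, a ubiquitin ligase that turns over lipoprotein receptors and is switched on by LXRs, lies on chromosome 6 (16129125 to 16148248, plus strand, GRCh38). It had 9.91, 10.4 and 6.96 FPKM with Li-doped Ag2S NPs and 8.12, 8.40 and 6.91 FPKM with Ag2S NPs at 320 μg/mL. Its level at 160 μg/mL was 1.89, 3.35 and 1.84 FPKM with Li-doped Ag2S NPs and 11.8, 10.0 and 9.02 FPKM with Ag2S NPs, against 17.2, 17.4 and 14.2 FPKM in control cells. Li-doped Ag2S NPs at 160 μg/mL left 14.5% of the control mean, the lowest share of the tested genes of the set. The log2 difference between the particles was -2.12 ± 0.21 at 160 μg/mL (SE, limma adjusted p = 1.37e-05) and 0.20 at 320 μg/mL (95% interval -0.15 to 0.55). ABCA1, the other cholesterol pump, was hardly measured and was not tested. It had 0.06, 0.13 and 0.13 FPKM with Li-doped Ag2S NPs and 0.26, 0.15 and 0.15 FPKM with Ag2S NPs at 320 μg/mL, 0.04, 0.01 and 0.02 FPKM with Li-doped Ag2S NPs and 0.21, 0.26 and 0.13 FPKM with Ag2S NPs at 160 μg/mL, and 0.16, 0.16 and 0.11 FPKM in control cells.

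**Figure D4:**
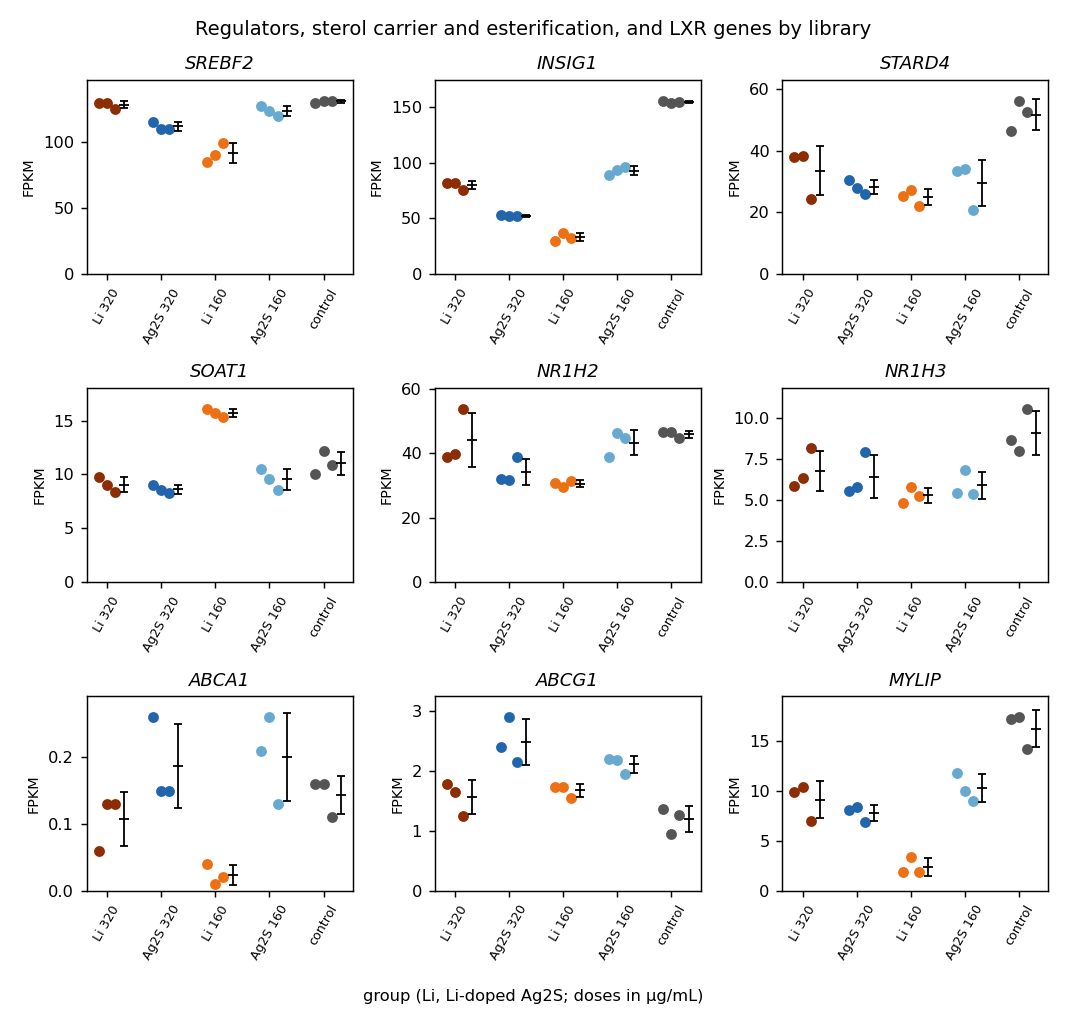
FPKM of 9 regulators, carriers and LXR genes in each library (points), with the group mean and SD (bars), in the order Li-doped and undoped Ag2S NPs at 320 μg/mL, the same at 160 μg/mL, and control. INSIG1 and MYLIP are lowest and SOAT1 is highest with Li-doped Ag2S NPs at 160 μg/mL.

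Other genes of the pathway were counted from 6 lists of 68 genes, of which 58 were tested at 320 μg/mL and 60 at 160 μg/mL. Li-doped Ag2S NPs lowered 36 and raised 7 at 320 μg/mL, and Ag2S NPs lowered 30 and raised 4. At 160 μg/mL, Li-doped Ag2S NPs lowered 30 and raised 13, and Ag2S NPs lowered 19 and raised 5. The shares that were lower lay nearer to those of all tested genes given above than the shares of the enzymes did. The 12 genes of SREBP processing and of sterol-regulated protein degradation had 8, 4, 4 and 2 lower and 1, 1, 1 and 0 higher members in the same order of groups. These shares lower (66.7%, 33.3%, 33.3% and 16.7%) were above that of all tested genes in the first group (44.6%) and under it in the other 3 (36.2%, 40.6% and 23.8%), and after scaling 2, 3, 2 and 1 members were lower. In that list SREBF1, which encodes the SREBP of fatty acid synthesis, had 224.6, 234 and 203 FPKM with Li-doped Ag2S NPs and 189, 168 and 188 FPKM with Ag2S NPs at 320 μg/mL. For SREBF1, the cells at 160 μg/mL had 73.8, 68.1 and 68.6 FPKM with Li-doped Ag2S NPs and 229, 245 and 175 FPKM with Ag2S NPs, against 337, 348 and 341 FPKM in control cells. The lowest libraries were again those of Li-doped Ag2S NPs at 160 μg/mL (log2 difference -2.29 ± 0.11, SE, limma adjusted p = 2.34e-08). SPRING1, needed to cleave the SREBPs, fell in 3 groups, with 13.04 and 13.7 FPKM at 320 μg/mL with Li-doped and undoped NPs and 14.3 and 18.4 FPKM at 160 μg/mL, against 20.1 FPKM in control.

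Further LXR targets also moved in both directions. PLTP, which moves phospholipids between lipoproteins, had 228, 217 and 266 FPKM with Li-doped Ag2S NPs and 235, 249 and 266 FPKM with Ag2S NPs at 320 μg/mL. The lower dose gave PLTP 282, 278 and 293 FPKM with Li-doped Ag2S NPs and 151, 158 and 156 FPKM with Ag2S NPs, against 60.3, 59.5 and 61.2 FPKM in control cells. All 12 treated libraries were above control, with log2 differences of 1.36 to 2.24 (limma adjusted p at most 1.54e-07). LPCAT3, which sets polyunsaturated fatty acids into phospholipids, was lower in every treated group, with means of 52.0 and 42.3 FPKM with Li-doped and undoped NPs at 320 μg/mL, with 29.3 and 67.7 FPKM at 160 μg/mL, against 105 FPKM in control.

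Sterol transport and further sterol enzymes gave genes with the order of the synthesis enzymes and genes without it. SCP2, a sterol carrier of peroxisomes, had means of 45.7 and 68.2 FPKM with Li-doped and undoped NPs at 320 μg/mL, with 32 and 80.7 FPKM at 160 μg/mL, against 102 FPKM in control. It was lower with Li-doped NPs at both doses, as SC5D was (log2 difference -0.58 and -1.33, limma adjusted p = 9.88e-05 and 2.62e-07). ERG28, a scaffold of sterol demethylation, had means of 32.2 and 24.0 FPKM at 320 μg/mL, with 18.7 and 33.7 FPKM at 160 μg/mL, against 38.9 FPKM in control, and so followed the enzymes. CH25H, which makes an oxidised sterol, had 1.61 and 1.33 FPKM at 320 μg/mL, with 0.50 and 2.04 FPKM at 160 μg/mL, against 3.91 FPKM in control. Of the lipoprotein receptors, SCARB1, which takes up cholesterol esters, was higher with Li-doped Ag2S NPs at both doses and with Ag2S NPs at 160 μg/mL (log2 difference 0.38, 0.89 and 0.41, adjusted p = 0.0289, 5.45e-05 and 0.0187). LRP1, an endocytic receptor, was lower with Li-doped Ag2S NPs at both doses and with Ag2S NPs at 320 μg/mL (-0.65, -0.97 and -0.43, adjusted p = 0.000221, 7.36e-05 and 0.00378).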

How the data were processed

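RNA of HaCaT cells was sequenced as paired reads of 150 bases. The authors' pipeline was TopHat for alignment, Cufflinks 2.1.1 for expression and Cuffdiff for their group tests. Which genome build and annotation they used is not given in the sources used here. As for units, the authors deposited FPKM per gene and library, used here as given from the 2 gene tables of 9 libraries. Their group values, ratios, p-values and q-values, and the tables of transcripts and of other group pairs, were not used. FPKM carry no counts, so counting error was not computed and precision rests on the spread of 3 libraries.

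Groups came from the sample labels. Genes whose FPKM averaged 1 or more were fitted on log2(FPKM + 0.1) with limma 3.58.1 in R 4.3.3 (eBayes with a trend, tests with 2 sides, Benjamini and Hochberg over all genes), 1 fit per dose over 9 libraries, and 1 over 15 libraries for comparisons of doses and the difference of dose effects. The fit was also run on simulated data with known changes. The members and lists were chosen with earlier results of these data known. All 30 members could be named, and from each further list at most 3 genes, those with the smallest unadjusted p against control; some of these are not reported here. Alternatives tried were scaling by median ratio, pseudocounts of 1 and 0.01, testing every gene above 0, raising the minimum to 5 FPKM, a robust fit, other sets of libraries in the fit, and leaving out each library. GENCODE release 29 (GRCh38) held each of the 18179 identifiers and gave coordinates and overlaps. Exons of 13 members overlap another gene there, and whether the authors counted by strand is not given, so that reads of such genes may be mixed.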

Additional observations from a re-analysis of the deposited data

Results flagged for a closer look

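The effect of dose differed between Li-doped and undoped Ag2S NPs in 21 genes of the set by the limma test of the difference itself, given here as the log2 difference between 320 and 160 μg/mL with Li-doped Ag2S NPs minus that with Ag2S NPs. Among the mevalonate and isoprenoid enzymes it was 1.5 for ACAT2, 0.56 for HMGCS1, 1.95 for MVK, 0.33 for PMVK, 1.48 for MVD, 2.31 for FDPS and 0.37 for GGPS1. Among the sterol branch enzymes it was 1.62 for FDFT1, 1.38 for LSS, 0.48 for TM7SF2, 0.98 for NSDHL, 0.75 for HSD17B7, 1.49 for EBP, 1.00 for SC5D and 1.61 for DHCR7. Among the other genes it was 0.63 for SREBF2, 2.1 for INSIG1, -0.77 for INSIG2, -0.65 for SOAT1, 0.85 for NR1H2 and 2.32 for MYLIP. The adjusted p was 1.24e-09 for INSIG1, the smallest, and 0.0398 for HMGCS1, the largest. The calls of PMVK and TM7SF2 were lost after scaling (adjusted p = 0.0578 and 0.0523). Those of HMGCS1, PMVK and TM7SF2 were lost without some single libraries, whose adjusted p ran from 0.0503 to 0.0972, 0.0608 to 0.084 and 0.0501 to 0.0771. Groups of 3 libraries were not tested for single distant values.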

How the results depend on the processing

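A pseudocount of 0.01 kept 261 of 261 results of single genes on their side of the threshold, a pseudocount of 1 or a robust fit kept 260, and 232 were kept after scaling by median ratio, with 18 lost, 10 gained and 1 reversed (SREBF2 with Li-doped Ag2S NPs at 320 μg/mL against control, 0.22). After scaling, 5 genes were higher than control with Li-doped Ag2S NPs at either dose and 4 with Ag2S NPs at 320 μg/mL. For the last, 0 were higher with a mean FPKM of at least 5 and 2 with the compared groups alone. Li-doped against undoped NPs at 320 μg/mL left 1 gene lower without a filter, after scaling or with the compared groups alone, and 3 with a pseudocount of 1. With a mean FPKM of at least 5, 3 genes were lower with Li-doped Ag2S NPs at 320 than at 160 μg/mL. The cause was not tested.

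Leaving out 1 library kept 2738 of 2871 such results, with 102 lost, 31 gained and 0 reversed. Against control, it left 21 to 23 lower and 2 higher with Li-doped Ag2S NPs at 320 μg/mL, and 22 to 25 lower and 1 to 2 higher with Ag2S NPs. At 160 μg/mL it left 22 to 23 lower and 2 to 4 higher with Li-doped Ag2S NPs, and 18 to 19 lower and 0 to 3 higher with Ag2S NPs. Li-doped against undoped NPs gave 1 to 2 lower and 13 to 17 higher at 320 μg/mL, and 16 to 17 lower and 1 to 3 higher at 160 μg/mL. Between the doses, 2 to 4 were lower and 15 to 18 higher with Li-doped Ag2S NPs, and 13 to 17 lower and 0 higher with Ag2S NPs. The difference of dose effects was negative in 2 and positive in 17 to 19 genes. No paired analysis was possible because the replicate numbers 1 to 15 all differ between the groups. FPKM carry no depth, so values near 1 FPKM, such as those of IDI1 and ABCG1, have an unknown counting error.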

Other observations

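A user of isoprenoids and a further sterol enzyme are given here by their values. COQ2, which attaches the isoprenoid tail of coenzyme Q, was lower than control in all 4 groups (-0.83 and -1.07 at 320 μg/mL, with -0.91 and -0.63 at 160 μg/mL, limma adjusted p = 0.000122 to 0.00486). LBR, a nuclear envelope protein that is also a sterol reductase, averaged 19.4 and 26.7 FPKM with Li-doped and undoped NPs at 320 μg/mL, 34.8 and 27.4 FPKM at 160 μg/mL, and 41.9 FPKM in control. Its difference between the particles was -0.47 at 320 μg/mL and 0.36 at 160 μg/mL on the log2 scale (limma adjusted p = 0.00541 and 0.0262).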
